A study of Drosophila melanogaster with 9 samples.

Results

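Long noncoding RNAs (lncRNAs) are transcripts that are too long to be small RNAs and for which no protein is annotated. The abundant lncRNAs of these fly thoraces were taken as the rows that the deposited tables name lncRNA and whose mean raw read count was 50 or more over the 3 libraries of at least 1 group. The rule found 73 of 1130 lncRNA rows, among 14473 features in all. Of these, 55 reached the cutoff in all 3 groups, 10 in 2 groups and 8 in 1 group. They were chosen by their measured read counts, so these levels are a description and carry no test, and an RNA that entered through a single group in which it was high had to stand lower in the others. Just inside the cutoff stood CR44851, CR45426 and CR33963, with a highest group mean of 50, 52.7 and 53.0 reads. Just outside stood CR46268, CR32582 and CR45345, with 49.7, 49.3 and 49.0 reads.

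The study, by its title, asks about retrotransposon expression in aging flies. Thoraces of Drosophila melanogaster females aged 20 days as adults were pooled for paired-end RNA sequencing. The background of all groups was W1118 (BL5905), and in every group, scramble included, Act5C drove a short hairpin RNA in all tissues. That hairpin was directed against the retrotransposon 412 in the group labelled 412KD and against the retrotransposon roo in the group labelled RooKD, and it was scrambled in the control group, scramble. Each group held 3 libraries, and both hairpin groups are set against the same 3 scramble libraries. Nothing in the labels ties the pools of a group to separate cultures. The p-values here therefore reflect the spread between libraries alone, which may be technical. Unless another scale is named, 3 values for a group are raw reads in its replicates 1, 2 and 3, and a fold change is the log2 ratio of edgeR with its SE. The thorax holds flight muscle, nerve cord, fat body, gut and blood cells, and in bulk RNA fewer cells of a type and less RNA per cell cannot be told apart.

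Some fly lncRNAs have known roles. Hsromega gives nuclear transcripts that gather heterogeneous nuclear ribonucleoproteins (hnRNPs) into omega speckles, and it is induced by heat. roX1 and roX2 coat the male X chromosome together with the MSL proteins and serve dosage compensation. Other loci are primary transcripts from which microRNAs are cut, lie within or against coding genes, or hold short open reading frames that some annotations count as coding. For most of the RNAs with a CR number no role is stated here.

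A library held 20600497 to 26177587 reads in the 412KD group, 17590599 to 22361932 in the RooKD group and 19766132 to 23545648 in the scramble group. The targeted elements did not stand lower in the libraries labelled as their knockdown. The 3 features of 412 summed to 10, 23 and 18 reads in 412KD, against 15, 16 and 11 in scramble, and the 4 features of roo to 415, 320 and 377 in RooKD, against 386, 329 and 255 in scramble. The names 412KD and RooKD below are therefore those of the libraries as labelled, and no direction given for them rests on a shown knockdown. Reads of 8 ovary and oocyte genes summed to 1230, 88 and 20271 in 412KD. They summed to 9942, 19 and 30 in RooKD and 46, 49 and 27 in scramble. 412KD replicate 3 and RooKD replicate 1 stood furthest apart, and 412KD replicate 1 also stood above the remaining libraries. DESeq2 called 6 of the 8 genes higher in 412KD than in scramble, where it called 2.97% of all features. Of the 4 that edgeR tested there, none was called. Results on the lncRNAs are given with and without 412KD replicate 3 and RooKD replicate 1 where that changes a call. Those fits kept 412KD replicate 1, so they are not free of ovary reads. Flight muscle, neuron, glia, fat body, gut and hemocyte markers were read in all 9 libraries, with no gene of these lists at 0. Testis markers summed to 0 to 18 reads and accessory gland markers to 0 to 11.

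The 73 RNAs held 0.343% to 0.526% of the reads of a library, and 94.4% to 96.1% of all reads on lncRNA rows. A single RNA, CR42862, gave 67.4% to 73.9% of that. The RNAs were spread over the genome, with 8 on 2L, 17 on 2R, 11 on 3L, 19 on 3R, 1 on chromosome 4 and 17 on X. Their exons covered a median of 1176 nt, from 214 nt for CR40469 to 21710 nt for Hsromega, against 645 nt for the other 1057 lncRNA rows. Merged over all annotated transcripts, the exons of 43 of them (58.9%) formed a single block, against 64.4% of the others. Such a block can hold spliced transcripts. Exons of 15 (20.5%) overlapped an exon of a coding gene, against 9.18% of the others, and 38 (52.1%) overlapped no coding gene, against 65.2%. Where exons overlap, reads cannot be assigned with certainty, since no source used here states whether the counting respected strand. Among the RNAs named here this holds for CR33963, CR42491, CR42549, CR42862, CR43241, CR44779, CR44851, CR45409, CR46194 and roX1.

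The levels of the abundant lncRNAs spanned a wide range. Over all 9 libraries 4 RNAs had a mean of 1000 normalized counts or more, 41 had 100 to 1000 and 28 had fewer than 100, where a normalized count is a read count scaled to the mean TMM library size of 21937972 reads. CR42862, at 3L:224106-230964 on dm6 and overlapping an exon of CG33229 on the same strand, had 56853, 95357 and 79424 in 412KD, 51652, 62827 and 68115 in RooKD and 72869, 70378 and 75550 in scramble, in raw reads. It averaged 72610 ± 8615 normalized counts in 412KD, 70027 ± 18482 in RooKD and 69276 ± 5418 in scramble (SD, n = 3 each), and the groups overlapped. CR31781 at 2L:16869346-16878300, which overlaps no coding gene and ends 26 bp from CG32832, had 10785, 12075 and 15316 in 412KD, 8631, 7801 and 9650 in RooKD and 12127, 8456 and 13722 in scramble, and its groups overlapped too. Hsromega followed in the order of reads.

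**Figure D1:**
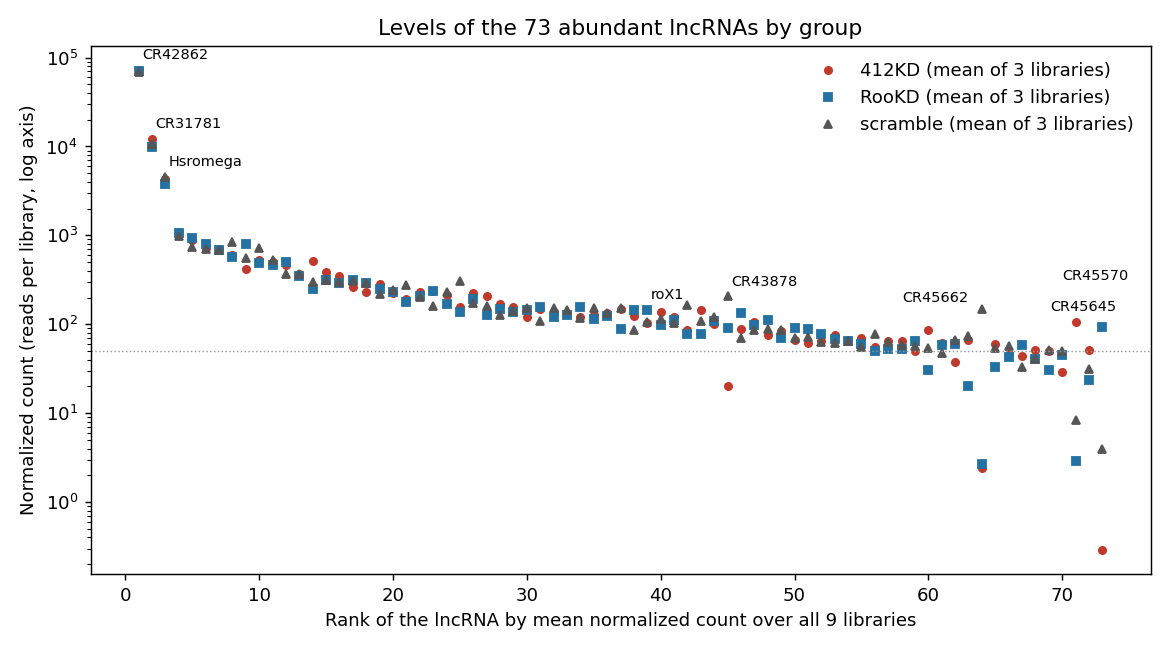
Mean normalized count of each of the 73 lncRNAs (log axis) in 412KD (circles), RooKD (squares) and scramble (triangles), each the mean of 3 libraries, ordered by rank over all 9 libraries; the dotted line marks 50. For most RNAs the 3 symbols lie close together, while CR43878, CR45662, CR45645 and CR45570 are spread over a wide range.

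Per length the order was different. CR42862 kept the first place at 587 ± 88.6 CPM per kilobase of exon (SD over 9 libraries), a count scaled for library size and length, followed by CR31781 at 186 ± 34.7. The next places went to short RNAs. CR45045 (249 nt) was at 108 ± 49.1, CR34335 (361 nt) at 85.4 ± 27.2, CR44404 (228 nt) at 71 ± 49.3 and CR42491 (747 nt) at 42.3 ± 7.8 CPM per kb. From CR31781 down to CR42491 the spreads of RNAs in adjacent places overlapped, so the order of these RNAs is not settled. Hsromega, which was number 3 by reads, was number 20 per length at 8.87 ± 1.41. The lowest was CR43334 (15466 nt) at 0.181 ± 0.052.

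Among the remaining RNAs with the highest counts, CR46194 had 814, 1348 and 1286 in 412KD, 772, 1027 and 969 in RooKD and 1004, 902 and 1192 in scramble. The reference annotation calls it an antisense RNA, it overlaps exons of SmD3 and of the antizyme gene Oda, and it holds mir-281-1 and mir-281-2. CR45102, 185 bp from Mnt, had 751, 1056 and 996 in 412KD, 790, 641 and 981 in RooKD and 809, 723 and 788 in scramble. In normalized counts its 412KD libraries lay above those of scramble without overlap, and RooKD replicate 3 was the highest of all 9. CR42491 had 650, 846 and 708 in 412KD, 773, 790 and 321 in RooKD and 795, 632 and 758 in scramble. It overlaps exons of the ribosomal protein gene RpL22 and holds a guide RNA for rRNA modification, snoRNA:Psi18S-531, whose own row had 109 to 159 reads in the hairpin libraries and 76 to 98 in scramble.

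Hsromega, at 3R:21296127-21317836, had 3550, 5721 and 4391 in 412KD, 3098, 3431 and 3430 in RooKD and 6046, 4642 and 3910 in scramble. The groups overlapped. Its log2 fold change over scramble, from each comparison's own fit, was −0.09 ± 0.16 (SE) in 412KD and −0.26 ± 0.18 in RooKD, with edgeR adjusted p = 0.849 and 0.577. In 412KD the sign turned to 0.01 without scramble replicate 1. Of 8 tested genes for proteins of the omega speckles, none passed the edgeR test in either comparison with scramble, where 6 and 5 were above 0. Their median log2 fold change was 0.10 in 412KD and 0.12 in RooKD, against 0.01 and 0.02 over all features. Hrb27C, an hnRNP gene, had 15110, 18943 and 20101 in 412KD, 14170, 11893 and 12051 in RooKD and 15784, 12843 and 14440 in scramble, and passed in 412KD by DESeq2 alone (log2 fold change 0.34 ± 0.09 and adjusted p = 0.293 in edgeR, adjusted p = 0.0378 in DESeq2).

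Heat shock genes, which heat induces together with Hsromega, were also not called by edgeR. In 412KD 3 of 16 tested were above 0, with a median log2 fold change of −0.35, and in RooKD 5 of 15, with a median of −0.21. DESeq2, which called 2.97% of all features in 412KD and 3.41% in RooKD, called no heat shock gene in 412KD and 3 lower in RooKD. These were the small heat shock gene Hsp23, the co-chaperone gene DnaJ-1 and stv, whose product works with the chaperone Hsc70 in muscle. Hsp23 had 949, 1012 and 567 in 412KD, 838, 550 and 502 in RooKD and 1284, 999 and 1133 in scramble, with a log2 fold change of −0.61 ± 0.14 in RooKD (edgeR adjusted p = 0.164, DESeq2 adjusted p = 0.0149). The 3 scramble libraries were above the 3 of RooKD.

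roX1, at X:3857230-3862697 and antisense to an exon of ec, was read in every library of these females, with 65, 144 and 122 in 412KD, 96, 124 and 157 in RooKD and 118, 121 and 94 in scramble. In normalized counts RooKD replicates 2 and 3, at 139 and 204, stood above all libraries of the other groups, and RooKD replicate 1 did not. The log2 fold change of roX1 was −0.04 ± 0.24 in 412KD and 0.48 ± 0.30 in RooKD (edgeR adjusted p = 0.963 and 0.528). In 412KD the sign turned when 412KD replicate 1 or scramble replicate 2 was left out (0.14 and 0.09). roX2 missed the cutoff by far: its 412KD libraries held 0, 7 and 0 reads, its RooKD libraries 1, 0 and 0, and its scramble libraries 0, 1 and 3. The 6 genes for dosage compensation proteins were all tested and none passed edgeR or DESeq2. Their median log2 fold change was 0.04 in 412KD and 0.11 in RooKD. msl-2, the subunit whose protein is limited to males, had 295, 324 and 299 in 412KD, 324, 312 and 270 in RooKD and 371, 334 and 317 in scramble.

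Besides Hsromega and roX1, noe has a name of its own and lies at 3L:17400272-17401348 in an intron of blot on the same strand. It had 584, 1002 and 717 in 412KD, 674, 877 and 556 in RooKD and 837, 752 and 642 in scramble, and the 3 groups overlapped throughout. The other named lncRNAs in the tables stayed far below the cutoff. Over all 9 libraries let7C summed to 168 reads, iab8 to 117, bxd to 43, alphagamma-element to 36, acal to 18, sphinx to 17, flam and iab4 to 16 each, yar to 9, Yu to 4 and TS27 to 2. For the bithorax genes Ubx, abd-A and Abd-B, which flank iab8, iab4 and bxd, and for the let-7 targets ab and chinmo, neither edgeR nor DESeq2 called a change. The 8 genes for proteins of small nucleolar ribonucleoproteins, which carry guide RNAs for rRNA modification, were not called either, though 6 were above 0 in 412KD and 8 in RooKD, with medians of 0.17 and 0.25.

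Of the 73 RNAs 5 are primary microRNA transcripts by their RefSeq synonyms, and these were named after their values had been seen, apart from CR43650. The read counts stand for the long precursor and not for the mature microRNA, which these libraries do not measure. CR43459, the precursor of mir-277 and mir-34, had 220, 339 and 180 in 412KD, 211, 172 and 241 in RooKD and 222, 146 and 151 in scramble. Its log2 fold change was 0.53 ± 0.25 in 412KD and 0.57 ± 0.23 in RooKD, with edgeR adjusted p = 0.484 and 0.37. CR43650, the precursor of mir-8, had 113, 220 and 148 in 412KD, 141, 144 and 127 in RooKD and 100, 102 and 140 in scramble. All 3 RooKD libraries were above all 3 of scramble in normalized counts, at 0.53 ± 0.22 on the log2 scale, which did not pass (edgeR adjusted p = 0.379), beside 0.47 ± 0.24 in 412KD, where groups overlapped (adjusted p = 0.516).

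CR43334, the precursor of the growth-promoting microRNA bantam, was on the other side of 0. It had 40, 81 and 59 in 412KD, 44, 44 and 44 in RooKD and 113, 77 and 60 in scramble, with log2 fold changes of −0.48 ± 0.28 in 412KD and −0.63 ± 0.28 in RooKD (edgeR adjusted p = 0.56 and 0.411), and its RooKD libraries lay below those of scramble without overlap. It had been chosen through 412KD and scramble, which fixed that side. CR46006, the precursor of mir-276a and mir-276b, had 323, 528 and 251 in 412KD, 256, 250 and 260 in RooKD and 285, 367 and 287 in scramble. CR43651, the precursor of mir-14, had 69, 83 and 48 in 412KD, 70, 39 and 36 in RooKD and 90, 53 and 45 in scramble. Both had overlapping groups.

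In the reference annotation several of the RNAs carry other names. CR45045 and CR43051 are listed there as coding genes, CR31451 is lncRNA:mimi, and CR44811 is an antisense RNA of bs, the fly serum response factor. CR45045 ranged widely within groups, with 414, 679 and 216 in 412KD, 1153, 500 and 536 in RooKD and 762, 327 and 696 in scramble. CR44404, named after its values had been seen, is the coding gene IBIN, which is induced by infection. It had 772, 650 and 93 in 412KD, 354, 175 and 161 in RooKD and 450, 356 and 161 in scramble. 412KD replicate 3 held the fewest reads of all 9 libraries, beside the highest counts in the other 412KD libraries. The coefficient of variation in 412KD was 79.4%, the largest of the 65 RNAs at a mean of 50 or more there, and the log2 fold change of 0.75 ± 0.79 was within its error (edgeR adjusted p = 0.749), as was that of −0.25 ± 0.37 in RooKD (adjusted p = 0.813). The antimicrobial peptide gene Def, also chosen after its values had been seen, had 2557, 4036 and 380 in 412KD, 1868, 1370 and 405 in RooKD and 3335, 2645 and 894 in scramble, so 412KD replicate 3 was lowest there too.

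Against scramble no abundant lncRNA passed the edgeR quasi-likelihood test at an adjusted p of 0.05 in the libraries of either hairpin. Of 72 tested in 412KD none was called, where 0.0192% of all features were, and of 71 tested in RooKD none was called, where 0.107% were. At an unadjusted p under 0.05 there were 11 in 412KD (4 higher and 7 lower), or 15.3% against 11.2% of all features, and 14 in RooKD (4 higher and 10 lower), or 19.7% against 12.7%. DESeq2 called 4 in 412KD (1 higher and 3 lower), where it called 2.97% of all features, and 3 in RooKD, all lower, where it called 3.41%. CR45570 was too low in most libraries to be tested, and CR45645 was not tested in RooKD.

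In normalized counts, libraries of the groups did not overlap for 13 RNAs in 412KD, 6 higher (8.67% of all features) and 7 lower (9.1%). The same held for 13 in RooKD, 2 higher (9.2%) and 11 lower (9.46%). In both directions together that is 18.1% of the RNAs in 412KD and 18.3% in RooKD, near the 17.8% and 18.7% of all features. The cutoff itself fixed the direction of 1 of the 6 and 2 of the 7 in 412KD and of 5 of the 11 lower ones in RooKD, which had reached it only in the groups where they were high. The median log2 fold change of the RNAs was 0.03 in 412KD, against 0.01 over all features, and −0.04 in RooKD, against 0.02. Scaling by library totals alone moved these medians of the RNAs to −0.10 and −0.17. Their median size without sign was 0.27 and 0.28, against 0.17 and 0.19 over all features. Both comparisons use the same scramble libraries, so a deviation of those libraries enters both.

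**Figure D2:**
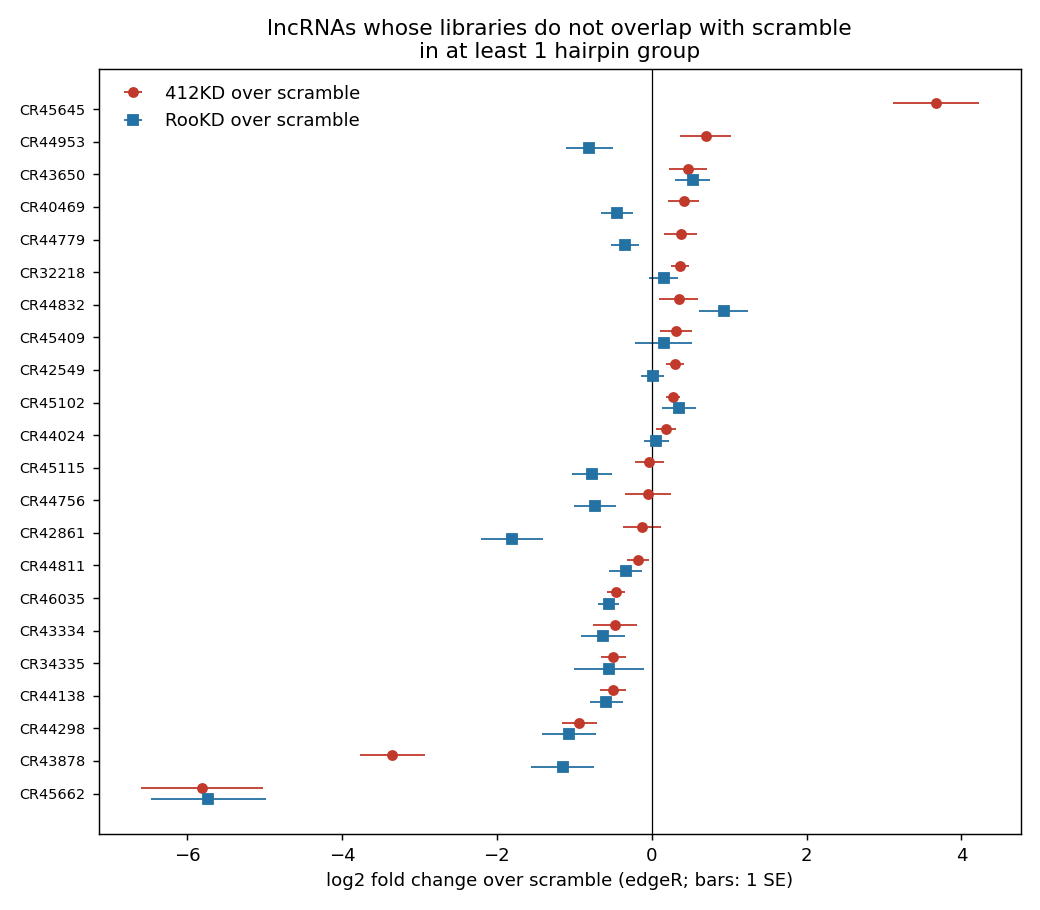
Log2 fold change over scramble from edgeR, with bars of 1 SE, in 412KD (circles) and RooKD (squares). Shown are the 22 lncRNAs whose libraries do not overlap with scramble in normalized counts in at least 1 hairpin group. CR45645 has no RooKD value because it was too low to be tested there. CR45662 and CR43878 lie far to the left and CR45645 far to the right, and most others stay within 1 log2 unit of 0.

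CR45662 had the largest difference in both comparisons. This RNA of 458 nt with a single exon at 3R:24282911-24283368 had 1, 2 and 5 in 412KD, 3, 1 and 3 in RooKD and 304, 120 and 58 in scramble. The 6 hairpin libraries held 5 reads or fewer each, and the 3 of scramble differed widely among themselves. It was chosen through the scramble group alone. With the reads of a group summed, the ratio of normalized reads to scramble was 0.0167 in 412KD (95% counting interval 0.00715 to 0.0331) and 0.0173 in RooKD (0.0069 to 0.0358). Such an interval leaves out the spread between libraries. The log2 fold change was −5.81 ± 0.79 in 412KD (edgeR adjusted p = 0.0832, DESeq2 adjusted p = 2.12e-11) and −5.73 ± 0.74 in RooKD (edgeR adjusted p = 0.0538, DESeq2 adjusted p = 5.88e-11). With 412KD replicate 3 and RooKD replicate 1 left out, edgeR's adjusted p was 0.0227 in 412KD and 0.0401 in RooKD, and without scramble replicate 3 it was 0.0316 in RooKD. Over all alternatives, DESeq2 included, the adjusted p ran from 2.12e-11 to 0.279 in 412KD and from 5.88e-11 to 0.169 in RooKD. With each library left out in turn the log2 fold change in 412KD ran from −6.53 to −5.08.

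The coding gene next to CR45662 differed on the same side. CG6356, on the opposite strand 587 bp away and chosen after its values had been seen, had 482, 616 and 567 in 412KD, 616, 395 and 380 in RooKD and 3883, 1500 and 970 in scramble. Its 3 scramble libraries kept the order of those of CR45662 and lay above all hairpin libraries. The log2 fold change of CG6356 was −1.88 ± 0.45 in 412KD (edgeR adjusted p = 0.245, DESeq2 adjusted p = 0.000238) and −1.90 ± 0.47 in RooKD (0.216 in edgeR, 8.34e-05 in DESeq2). The next gene, shps, 1335 bp away, had 6, 21 and 16 in 412KD, 6, 11 and 4 in RooKD and 12, 13 and 12 in scramble, and Orct, 4119 bp away, had 934, 1318 and 827 in 412KD, 1408, 1596 and 977 in RooKD and 1285, 1055 and 1798 in scramble. In both of these the groups overlapped.

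CR43878, of 636 nt at 3L:21884511-21887039, lies opposite to an intron of mub, the gene of an RNA-binding protein. It had 15, 24 and 25 in 412KD, 129, 62 and 60 in RooKD and 324, 234 and 102 in scramble. All 412KD libraries were below all others, and RooKD overlapped with scramble through scramble replicate 3. The RNA had been chosen through RooKD and scramble, which fixed that 412KD would stand low. The ratio to scramble was 0.0973 in 412KD (95% counting interval 0.0741 to 0.126) and 0.452 in RooKD (0.389 to 0.523). The log2 fold change was −3.35 ± 0.43 in 412KD (edgeR adjusted p = 0.0795, DESeq2 adjusted p = 1.49e-11) and −1.15 ± 0.41 in RooKD (0.31 in edgeR, 0.0961 in DESeq2). In 412KD edgeR's adjusted p was 0.032 without scramble replicate 3 and 0.0151 without 412KD replicate 3 and RooKD replicate 1. Over the alternatives, DESeq2 included, the adjusted p ran from 1.49e-11 to 0.336. mub itself had 4252, 5899 and 6465 in 412KD, 4216, 3942 and 4487 in RooKD and 5649, 4433 and 5695 in scramble, with log2 fold changes of 0.07 ± 0.12 and −0.03 ± 0.16, so the host gene's 412KD and scramble libraries overlapped where those of the RNA in its intron did not.

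CR45645 differed in the other direction. This RNA of 704 nt at 3R:21861377-21862080, 3088 bp from the nearest coding gene lsn, had 107, 166 and 62 in 412KD, 6, 0 and 2 in RooKD and 4, 9 and 13 in scramble, and was chosen through 412KD alone. Every 412KD library was far above every other library. The ratio of 412KD was 12.9 to scramble (95% counting interval 8.67 to 20.1) and 35.4 to RooKD (17.7 to 82.6). The log2 fold change over scramble was 3.67 ± 0.55 (edgeR adjusted p = 0.0956, DESeq2 adjusted p = 2.66e-08), and edgeR's adjusted p was 0.0127 without 412KD replicate 3 and 0.00791 without that library and RooKD replicate 1. Over the alternatives, DESeq2 included, the adjusted p ran from 2.66e-08 to 0.345. The lncRNA CR45644, 399 bp away on the same strand and itself below the cutoff, was chosen after its values had been seen and had 17, 46 and 17 in 412KD, 0, 0 and 0 in RooKD and 6, 0 and 3 in scramble. It too was highest in 412KD. lsn had 435, 634 and 395 in 412KD, 313, 333 and 238 in RooKD and 417, 334 and 393 in scramble and overlapped with scramble.

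**Figure D3:**
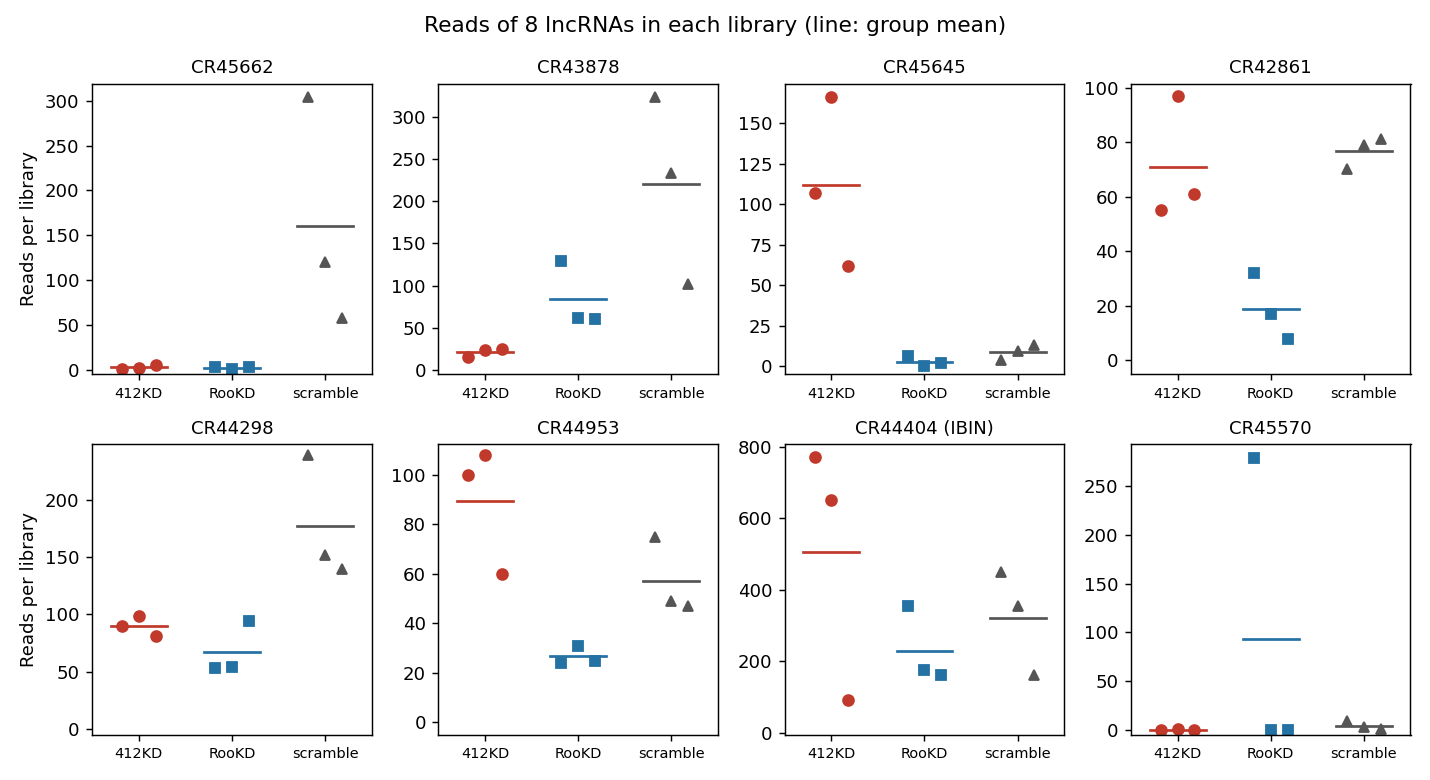
Raw reads per library (vertical axes start near 0 and differ between panels) of 8 lncRNAs in 412KD, RooKD and scramble, with a line at each group mean. CR45662 is read almost only in scramble, CR43878 is lowest in 412KD, CR45645 is high in 412KD, CR42861 and CR44953 are lowest in RooKD, CR44298 is highest in scramble, CR44404 varies within 412KD, and CR45570 is high in a single RooKD library.

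CR42861, of 549 nt at X:13744928-13745476 and 101 bp from Pdcd4, had its lowest counts in the libraries labelled RooKD. It had 55, 97 and 61 in 412KD, 32, 17 and 8 in RooKD and 70, 79 and 81 in scramble. The RooKD libraries did not overlap with either other group, but the RNA had been chosen through 412KD and scramble, so a low RooKD level was fixed by that choice. Its log2 fold change over scramble was −1.81 ± 0.40 in RooKD (edgeR adjusted p = 0.161, DESeq2 adjusted p = 0.00562), with an edgeR adjusted p of 0.0353 when 412KD replicate 3 and RooKD replicate 1 were left out and a range from 0.00562 to 0.55 over the alternatives, DESeq2 included. In 412KD it was −0.12 ± 0.25 (adjusted p = 0.871). Pdcd4 had 2680, 3518 and 4242 in 412KD, 3279, 2658 and 2441 in RooKD and 3116, 2580 and 3042 in scramble. In normalized counts its 412KD and RooKD libraries lay above those of scramble, at 0.26 ± 0.12 and 0.20 ± 0.11 on the log2 scale (edgeR adjusted p = 0.478 and 0.471), so it did not share the low RooKD counts of CR42861.

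CR44298, of 299 nt at 2R:10053095-10053393, lies opposite to an intron of magu, which codes for a secreted modulator of BMP signalling. It had 90, 99 and 81 in 412KD, 53, 54 and 94 in RooKD and 239, 152 and 140 in scramble, so scramble was highest without overlap with either hairpin group. The log2 fold change was −0.93 ± 0.23 in 412KD (edgeR adjusted p = 0.245, DESeq2 adjusted p = 0.0247) and −1.07 ± 0.35 in RooKD (0.273 in edgeR, 0.0847 in DESeq2). magu differed on the same side, with 2630, 2910 and 2531 in 412KD, 2335, 1871 and 1458 in RooKD and 7161, 3788 and 4381 in scramble. Its log2 fold change was −0.88 ± 0.21 in 412KD (edgeR adjusted p = 0.238, DESeq2 adjusted p = 0.00528) and −1.17 ± 0.19 in RooKD (0.0763 in edgeR, 3.72e-06 in DESeq2). Without knowledge of strand in the counting, reads of magu's precursor and of the RNA within its intron cannot be told apart.

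CR34335, of 361 nt in an intron of DIP-alpha on the same strand, had 586, 771 and 532 in 412KD, 728, 713 and 161 in RooKD and 919, 871 and 895 in scramble. DIP-alpha codes for a cell surface protein of neurons. The 412KD libraries of CR34335 lay below scramble without overlap, while in RooKD replicate 3 alone was far below (log2 fold change −0.49 ± 0.16 in 412KD and −0.55 ± 0.45 in RooKD, edgeR adjusted p = 0.343 and 0.651). DIP-alpha had 70, 128 and 116 in 412KD, 124, 112 and 116 in RooKD and 203, 197 and 143 in scramble, with a log2 fold change of −0.81 ± 0.21 in 412KD (edgeR adjusted p = 0.256, DESeq2 adjusted p = 0.0498). Over all 73 RNAs and the coding genes they overlap or lie nearest to, 69, 69 and 71 pairs had both partners tested in 412KD against scramble, RooKD against scramble and 412KD against RooKD. A coding gene can be in more than 1 pair. The log2 fold changes of both partners had the same sign in 45, 38 and 41 of these pairs, and edgeR called none of those coding genes. DESeq2 called 5 of them in 412KD against scramble (CG6356, magu, DIP-alpha, Prat2 and MsR1), where it called 2.97% of all features. It called 3 in RooKD against scramble (CG6356, magu and Prat2), where it called 3.41%, and 0 between the hairpins, where it called 0.774%. Prat2, a gene of purine synthesis nearest to CR45115, was chosen after its values had been seen and had 2908, 3184 and 1725 in 412KD, 2152, 2538 and 1837 in RooKD and 1820, 1137 and 1140 in scramble. 412KD replicate 3 overlapped with scramble and RooKD did not, at log2 fold changes of 0.99 ± 0.30 in 412KD (edgeR adjusted p = 0.331, DESeq2 adjusted p = 0.0296) and 0.96 ± 0.17 in RooKD (0.106 in edgeR, 0.000208 in DESeq2). MsR1, a receptor gene for the neuropeptide myosuppressin and nearest to CR45426, was likewise chosen after its values had been seen and was at 0.86 ± 0.23 in 412KD (edgeR adjusted p = 0.274, DESeq2 adjusted p = 0.0277). Prat2 in RooKD and MsR1 in 412KD stood above 0, while their neighbours CR45115 and CR45426 stood below 0 there. CR45426 had been chosen through scramble alone, which fixed its lower side.

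**Figure D4:**
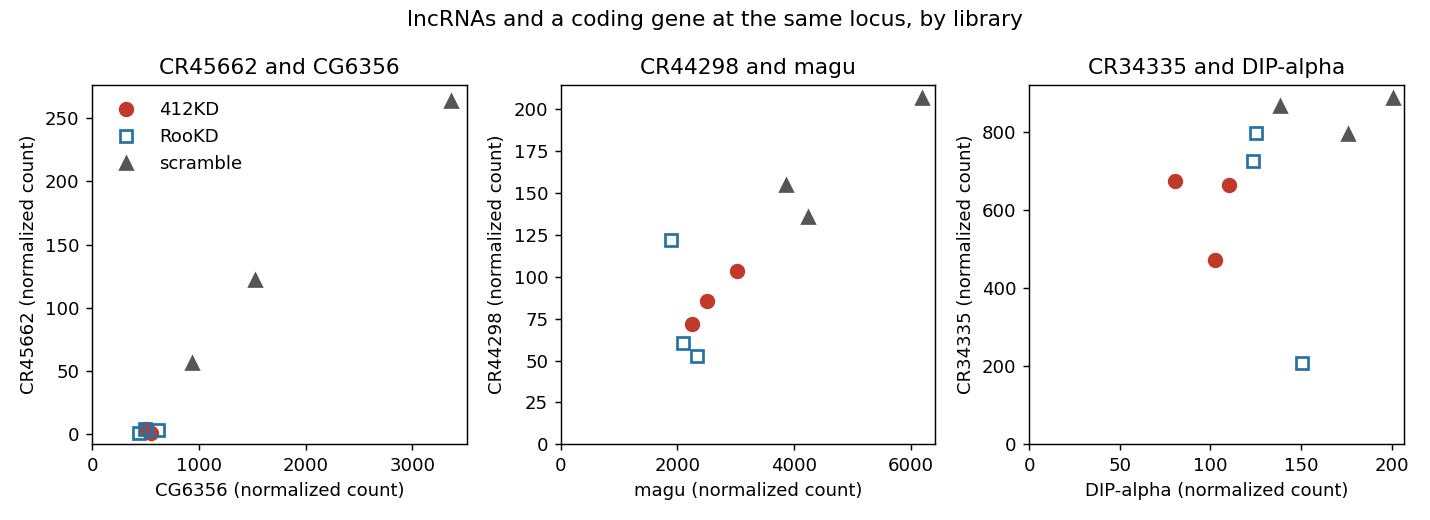
Normalized counts in each of the 9 libraries of an lncRNA (vertical axis) and of a coding gene at the same locus (horizontal axis) in 412KD (filled circles), RooKD (open squares) and scramble (triangles). CR45662 and CG6356 are both high in scramble, CR44298 and magu likewise, and CR34335 is low against DIP-alpha in RooKD replicate 3.

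Smaller differences kept the same side in both hairpin groups for CR46035 and CR44138. CR46035, opposite to an intron of the chromatin remodelling gene osa, had 484, 577 and 581 in 412KD, 448, 473 and 370 in RooKD and 936, 642 and 715 in scramble. Scramble was highest without overlap, with a log2 fold change of −0.46 ± 0.12 in 412KD (edgeR adjusted p = 0.26, DESeq2 adjusted p = 0.0718) and −0.55 ± 0.14 in RooKD (0.195 in edgeR, 0.0398 in DESeq2). CR44138, opposite to an intron of CG9813, had 146, 258 and 214 in 412KD, 160, 134 and 178 in RooKD and 369, 256 and 247 in scramble. Its log2 fold change was −0.50 ± 0.17 in 412KD and −0.59 ± 0.21 in RooKD, with edgeR adjusted p = 0.365 and 0.314. In normalized counts, CR32218, CR45409, CR42549, CR45102 and CR44024 were among the RNAs above scramble without overlap in 412KD. They had log2 fold changes of 0.37, 0.31, 0.30, 0.27 and 0.19, with edgeR adjusted p from 0.339 to 0.615. CR32218, which lies within introns of Mi-2 and Su(Tpl), had 202, 257 and 244 reads in 412KD and 196, 167 and 185 in scramble.

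In normalized counts, CR44832 was the RNA furthest above scramble without overlap in RooKD, though RooKD replicate 3 overlapped with scramble in raw reads. It had 62, 110 and 114 in 412KD, 192, 105 and 69 in RooKD and 64, 86 and 70 in scramble and stood at 0.93 ± 0.32 on the log2 scale over scramble (edgeR adjusted p = 0.291). Below scramble without overlap in RooKD, CR44953 had 100, 108 and 60 in 412KD, 24, 31 and 25 in RooKD and 75, 49 and 47 in scramble and −0.80 ± 0.30 (adjusted p = 0.333). CR45115, 45560 bp from the nearest coding gene, had 151, 136 and 178 in 412KD, 67, 106 and 62 in RooKD and 163, 147 and 173 in scramble and −0.77 ± 0.25 (adjusted p = 0.273). CR44756, opposite to an intron of Gp150, had 59, 42 and 51 in 412KD, 30, 27 and 24 in RooKD and 68, 50 and 45 in scramble and −0.74 ± 0.27 (adjusted p = 0.322). In CR45115 and CR44756 the 412KD and scramble libraries overlapped. CR44953 and CR44756 had been chosen through 412KD and scramble, which fixed their lower side in RooKD. CR43928, 786 bp from the translation repressor gene Thor and chosen after its values had been seen, had 145, 248 and 103 in 412KD, 115, 121 and 123 in RooKD and 573, 303 and 119 in scramble. Scramble replicate 1 was far above the rest, and scramble replicate 3 stood among the hairpin libraries.

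Between the libraries labelled 412KD and RooKD, which were fitted with all 9 libraries, edgeR called none of 72 tested RNAs, where it called 0.0943% of all features. At an unadjusted p under 0.05 there were 11 (15.3%, against 6.02% of all features), 9 higher and 2 lower in 412KD, and DESeq2 called 3 higher and 1 lower, where it called 0.774%. Libraries did not overlap for 8 RNAs higher in 412KD (4.23% of all features) and 1 lower (4.86%), together 12.5% against 9.09%. The median log2 fold change was 0.11, against 0.00 over all features, and 0.04 with RooKD replicate 1 left out. Of the 8, 6 had reached the cutoff in 412KD and not in RooKD, and the 1 lower RNA in RooKD and not in 412KD, so the choice of RNAs fixed their direction and nothing is read from these counts.

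The largest difference between the hairpin groups was that of CR45645, at 5.12 ± 0.80 (edgeR adjusted p = 0.0865, DESeq2 adjusted p = 1.14e-08). Without 412KD replicate 3 edgeR's adjusted p was 0.0421, and without that library and RooKD replicate 1 it was 0.00996. Over the alternatives, DESeq2 included, the adjusted p ran from 1.14e-08 to 0.44. CR42861 followed at 1.69 ± 0.39 (0.341 in edgeR, 0.00721 in DESeq2), and with 412KD replicate 3 and RooKD replicate 1 left out edgeR's adjusted p was 0.0383. CR44953 was at 1.52 ± 0.33 (0.319 in edgeR, 0.014 in DESeq2). CR45625, 490 bp from CG4645, had 33, 50 and 81 in 412KD, 20, 17 and 24 in RooKD and 21, 38 and 38 in scramble and a log2 fold change of 1.13 ± 0.40 that passed in neither tool (edgeR adjusted p = 0.683). CR43878 was the only RNA lower in 412KD without overlap, at −2.19 ± 0.41 (0.176 in edgeR, 0.00024 in DESeq2). The cutoff fixed the direction of each RNA in this paragraph, CR45625 having reached it through 412KD alone, so these directions are not a result.

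Since the hairpins target retrotransposons, insertions in the 73 loci were looked up in the reference annotation of dm6. Exons of 7 RNAs (9.59%) overlap an annotated transposon insertion, against 3.03% of the other lncRNA rows. The sets were not matched for length, with median exon lengths of 1176 and 645 nt. These are CR42839, CR43148, CR43241, CR44024, CR45570, CR46064 and roX1. No span holds an insertion of 412, and 3 hold one of roo, within introns in CR44779 and CR44811 and overlapping the exon in CR45570. CR44779 had 162, 314 and 187 in 412KD, 139, 100 and 98 in RooKD and 168, 178 and 160 in scramble, and CR44811 had 114, 160 and 156 in 412KD, 118, 133 and 74 in RooKD and 165, 167 and 154 in scramble. In normalized counts the RooKD libraries of CR44779 lay below both other groups without overlap, and the 412KD libraries of CR44811 below scramble. Neither passed edgeR there (adjusted p = 0.471 for CR44779 in RooKD and 0.664 for CR44811 in 412KD, against scramble). Of all features, 9.46% lay below scramble without overlap in RooKD and 9.1% in 412KD. Whether the insertions play a part was not tested. CR45570, of 561 nt at 3R:30404429-30404989 and named after its values had been seen, had 0, 1 and 0 in 412KD, 279, 0 and 0 in RooKD and 9, 3 and 1 in scramble. It was chosen through RooKD replicate 1 alone, the RooKD library that also held 9942 reads of ovary and oocyte genes, and without that library it has no read in RooKD. The part of ovary RNA in this count was not tested.

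The spread between replicates of the abundant lncRNAs was described by the coefficient of variation, without matching other features for level. At a mean of 50 normalized counts or more, its median was 19.0% in 412KD (65 RNAs), 24.7% in RooKD (63) and 16.3% in scramble (66), against 13.5%, 15.1% and 9.68% over all features at that level. The least variable were CR45102 in 412KD (2.63%), CR30055 in RooKD (7.27%) and CR40469 in scramble (2.09%). RooKD replicate 1 was the lowest of the 9 libraries for 19 RNAs and RooKD replicate 3 the highest for 15. In RooKD replicate 3, 6 RNAs were more than 1 log2 unit below their median library, and all 6 were among the 22 RNAs under 800 nt. In 412KD replicate 3 there were 5 and in RooKD replicate 2 there were 4, also all under 800 nt. In RooKD replicate 1 there were 4, of which 1 was under 800 nt. Across the 73 RNAs, Spearman's correlation of exon length with the deviation in RooKD replicate 3 was 0.34, and across all tested features it was 0.17. In RooKD replicate 2 the 2 values were 0.30 and −0.06, and in scramble replicate 3 they were −0.28 and −0.02. Such a correlation is a description over RNAs that share the library, and the part of length in the differences above was not tested.

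**Figure D5:**
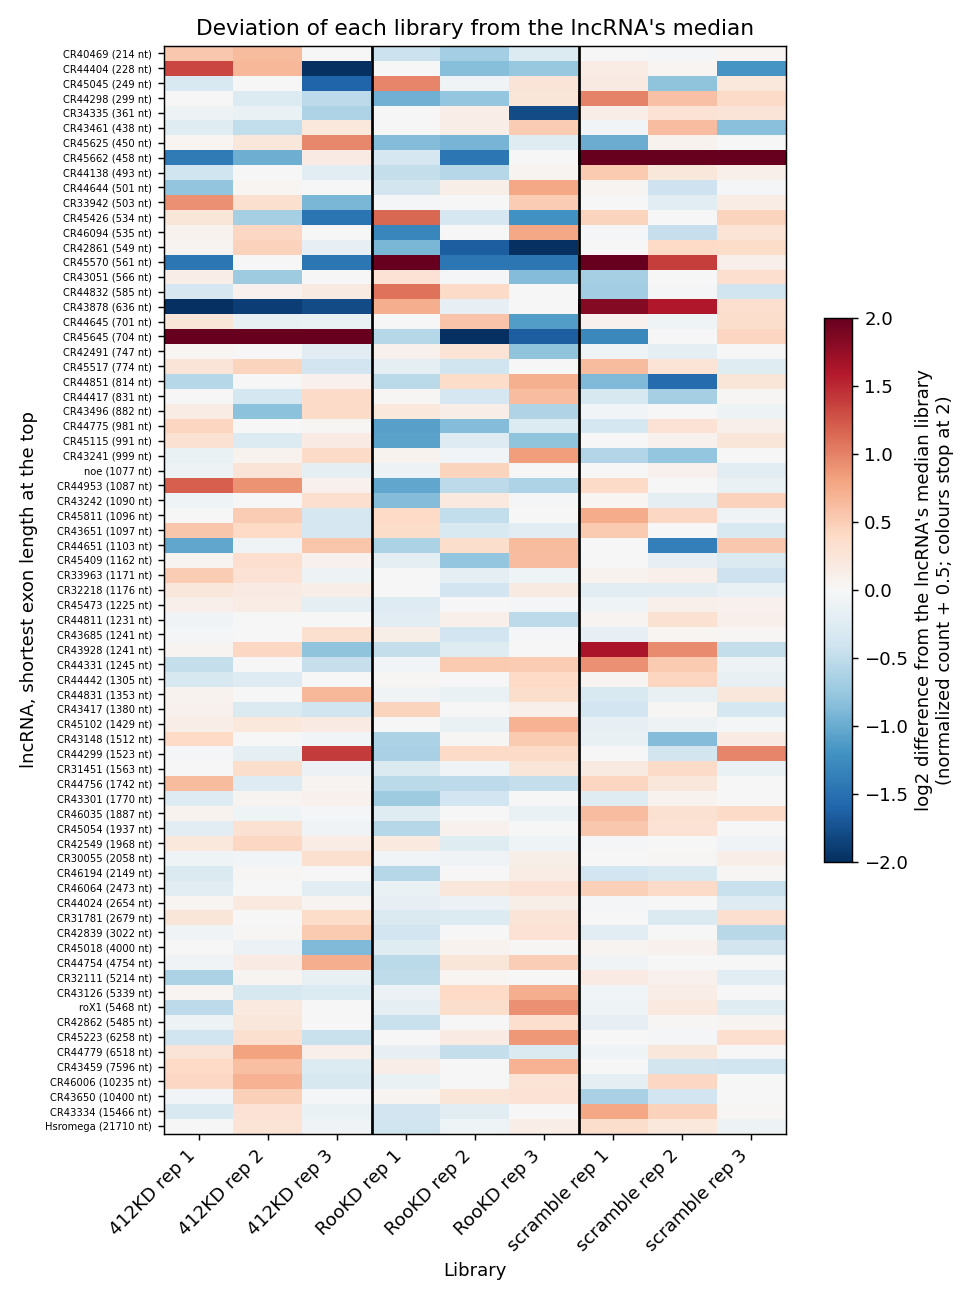
Log2 difference of each library from the median library of the same lncRNA (normalized count + 0.5, colours stop at 2), with the 73 lncRNAs ordered by exon length from the shortest at the top and the 9 libraries in columns. Many of the strongest colours are among the RNAs under 800 nt, where CR45662 is high in scramble and CR45645 in 412KD. CR43928, CR44299 and CR44953 are longer RNAs with strong colours.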

How the data were processed

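The 9 paired-end RNA libraries come from pooled thoraces of females (day 20), and their titles give 3 to each of 412KD, RooKD and scramble. Per the labels' protocols, total RNA came from a Trizol extraction. HISAT2, DESeq2 and build dm6 are named, without versions, per the submitters' processing notes. No source used here states the counting tool, annotation release, use of strand or handling of reads with several matches.

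For each hairpin the authors deposited a table that repeats the scramble columns. Its raw read counts, named so per the file headers, entered all tests. The deposited normalized signal, the deposited FPKM values, and the deposited log2 fold changes and p-values of the authors' own comparisons were not used. The tables hold 14160 and 14072 features, 13759 of them shared, after 6 low-complexity features that name no gene had been set aside. The features set aside took 0.2439% of reads in RooKD replicate 3 and 0.0019% to 0.0278% in the other libraries. Symbols stored as dates (5 genes) were looked up by identifier. Coordinates are those of the deposited tables on dm6. Of the 73 lncRNAs 69 have the same span in the reference annotation, which also gave exons, neighbours and transposon insertions.

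The test was that of edgeR 4.0.16, run in R 4.3.3 (TMM, filterByExpr, robust quasi-likelihood F test, two-sided) at a Benjamini-Hochberg adjusted p of 0.05 over all features tested, 10431, 10305 and 10599 in 412KD against scramble, RooKD against scramble and 412KD against RooKD. Each comparison with scramble used its own table and 6 libraries, and 412KD against RooKD all 9. DESeq2 1.42.0 served as an alternative, with adjusted p-values it does not give left out. Normalized counts and CPM use the TMM library sizes of the 9-library fit. SE is the log2 fold change divided by the square root of F. The fits were tested on simulated data. Ratios of normalized reads were taken from reads summed over the 3 libraries of a group. Their 95% counting intervals cover counting error only and leave out the spread between libraries. The chi-square of replicate pairs, divided by its degrees of freedom, was 20.9 to 164, so no libraries were merged for the tests.

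The lncRNAs, gene lists and tests were chosen with earlier results of these data known. Named were the RNAs that passed the test, the 10 with the highest mean count, the 6 largest changes each way without overlap in each comparison with scramble and 4 each way between the hairpins, those with a name other than a CR number, and the 3 on each side of the cutoff. Others are marked in the text as chosen after their values were seen, and those that the reference annotation renames, that overlap transposons or that mark the least variable RNAs were chosen so as well. The alternatives were other normalizations, no filter, DESeq2, other sets of libraries, the replicate number as a block and each library left out.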

Additional observations from a re-analysis of the deposited data

How the results depend on the processing

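The number of abundant lncRNAs that passed was 0 in each comparison with edgeR, and stayed 0 with median-ratio size factors and with library totals. With DESeq2 it was 4 in 412KD against scramble, 3 in RooKD against scramble and 4 in 412KD against RooKD. Without a filter on low counts it was 1, 1 and 0, with all 9 libraries in the fit 2 and 1 against scramble, and with the 6 hairpin libraries alone 0 between the hairpins. With 412KD replicate 3 and RooKD replicate 1 both left out it was 3, 2 and 2. With each library left out in turn it was 0 to 1 in each comparison, 1 without 412KD replicate 3 (CR45645, also between the hairpins) or without scramble replicate 3 (CR43878 in 412KD and CR45662 in RooKD). All features called were 2, 11 and 10, from 0 to 105, 0 to 44 and 2 to 22 with a library left out, 337, 346 and 81 by DESeq2, 15, 26 and 11 without a filter, 14, 13 and 10 with library totals, 14 and 9 with all 9 libraries, 4 between the hairpins with the 6 hairpin libraries alone, and 116, 84 and 70 without both libraries.

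The replicate block called 0 lncRNAs in every comparison and 0, 10 and 4 features. Same-numbered libraries correlated at 0.086, 0.119 and 0.114 in 412KD against scramble, 0.238, −0.029 and 0.064 in RooKD against scramble and 0.0015, 0.393 and −0.210 in 412KD against RooKD, so the numbers were not taken to pair the samples.

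Among the lncRNAs whose fold change is printed, the sign turned in 412KD against scramble for roX1 (−0.20 to 0.14 with a library left out, above 0 without 412KD replicate 1 or scramble replicate 2), Hsromega (−0.21 to 0.0139, above 0 without scramble replicate 1) and CR42861 (−0.32 to 0.0104, above 0 without 412KD replicate 3, and 0.00918 without both libraries). Over the 19, 17 and 5 lncRNAs whose fold change is printed in each comparison, 230 of 247, 213 of 221 and 73 of 80 values under the alternatives kept sign and side of the threshold, and 12, 8 and 7 came to pass it. Over all RNAs of the naming rule that were tested, 8 of 30, 10 of 29 and 12 of 30 changed sign under at least 1 alternative, CR42862, CR42491 and noe among them. The cause was not tested. The median log2 fold change of the lncRNAs was −0.10 and −0.17 against scramble with library totals, and between the hairpins 0.04 without RooKD replicate 1 and 0.23 without RooKD replicate 3. The filter on low counts kept CR45570 out of the main edgeR test in every comparison and CR45645 out of that of RooKD against scramble.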
